A study of Mus musculus with 18 samples.

Results

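Chemokines and their receptors were followed in 18 laser-captured lung metastases from mice with and without transferred natural killer (NK) cells. The genes were chosen by symbol alone: every Ccl, Cxcl, Ccr or Cxcr symbol ending in a number or a number and 1 letter, together with Cx3cl1 and Cx3cr1. This gave 54 genes, 37 ligands and 17 receptors, of 48952 rows in the deposited normalized table. Of these, 50 had a count in at least 1 lesion, 34 ligands and 16 receptors. Ccl20, Ccl26, Ccl27b and Ccr8 had 0 counts in all 18 lesions. The filter on low counts let 42 of the 54 into the test, and 8 of the 12 others had counts too few or in too few mice to pass it.

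The lesions grew from AT3 cells, a line from a mouse mammary tumour of the MMTV-PyMT model, which carried GFP and mCherry and had been placed in the mammary fat pad, from where they reached the lungs without further injection. All hosts lacked Rag2 and Il2rg according to the strain label (Rag2-/-IL2rg-/-), although the growth protocol gives Rag1 instead; such hosts lack T, B and NK cells of their own and keep myeloid cells. NK lesions (labelled "NK transferred") came from mice given 60000 mouse NK cells, activated in culture, by vein on day 11, and Ctrl lesions came from mice given PBS; age is not given. There were 7 NK lesions, 3 from mouse NK1 and 4 from mouse NK2, and 11 Ctrl lesions, 5 from mouse KO1, 4 from mouse KO2 and 2 from mouse KO3, where KO is the code the titles use for Ctrl mice. A lesion is named by mouse and number (NK2-1), lesions of 1 mouse were not treated as independent, and counts summed over the lesions of each mouse gave 2 NK against 3 Ctrl mice.

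Chemokines are small secreted proteins that attract cells bearing G protein-coupled receptors for them. In the lung, Cxcr2 and its ligands bring in neutrophils, Ccr2 and its ligands bring in monocytes, and Cxcr3 with its interferon-induced ligands draws NK cells and T cells. Homeostatic chemokines such as Cxcl12 and Ccl21a are made by stromal and endothelial cells without inflammation, and NK cells themselves secrete Ccl3, Ccl4, Ccl5 and Xcl1.

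The libraries held 2964241 to 11798853 counts each, and between 17 (NK1-3) and 43 (NK2-1) of the 54 genes had a count in a given lesion. Values are CPM, counts scaled to a library of 1000000 counts, on library sizes scaled by TMM, the trimmed mean of M values. A count of 0 allows up to 3 counts, which was 0.177 to 2.10 CPM in NK lesions and 0.224 to 1.35 CPM in Ctrl lesions; such limits cover counting error only. The 16 NK cell markers summed to 9.10 to 82.0 CPM in NK lesions and to 0.898 to 9.97 CPM in Ctrl lesions, so that the lowest NK lesions overlapped the highest Ctrl lesions. All 9 genes listed as AT3 tumour markers had counts. Their sums were 1048 to 2162 CPM in NK lesions and 1093 to 2524 CPM in Ctrl lesions. Vim made most of these sums, such as 894 CPM in NK1-1 and 2407 CPM in KO1-4, except in NK1-3. There Vim had 284 CPM, Krt19 321 CPM and Cdh1 209 CPM. That lesion also had the highest sum of the 16 lung epithelium markers, 26463 CPM. The share of tumour cells in the lesions was not tested. The T cell marker Cd3e was at 0 in every lesion. The mitochondrial ribosomal RNA gene mt-Rnr2 took 47.6%, 65.3% and 52.0% of the counts in the 3 NK1 lesions and 13.7% to 22.8% in the NK2 lesions, against 12.1% to 68.7% in Ctrl lesions, so this share moved with the mouse within the NK group; its part in the results was not tested. Lesion NK1-1 stood apart with the highest sums of fat cell (2049 CPM), heart muscle (270 CPM) and fibroblast markers (9836 CPM), and NK1-3 had the smallest library, so fold changes were also fitted without them. In bulk samples, fewer cells of a type and less RNA per cell cannot be told apart.

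**Figure D1:**
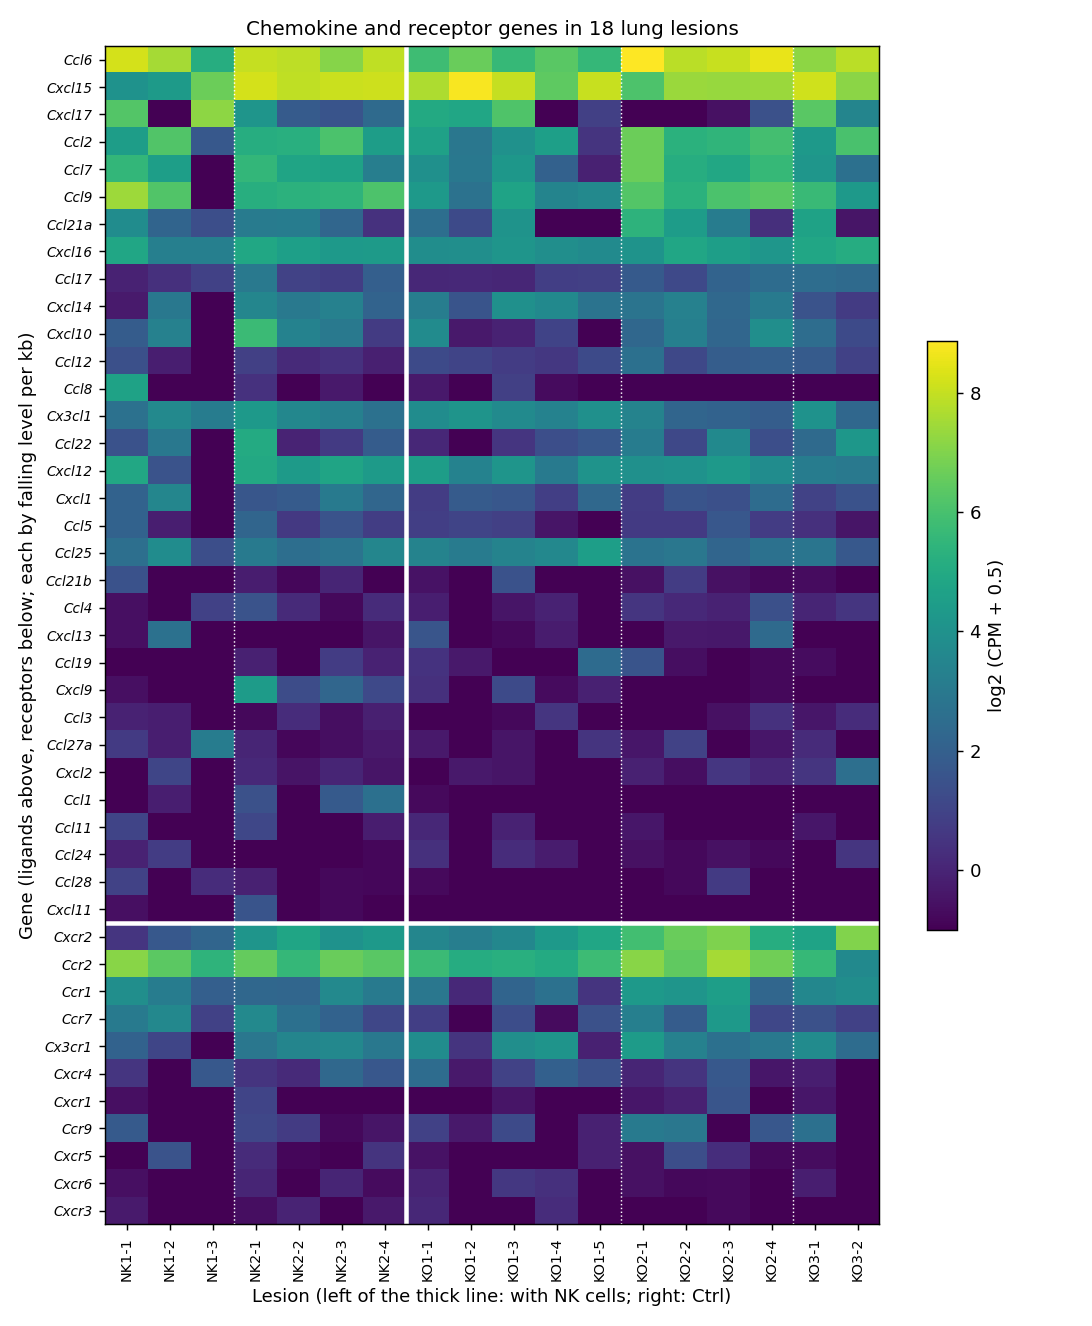
Heat map of log2 (CPM + 0.5) for 43 chemokine and receptor genes with at least 20 counts (rows, ligands above receptors) in each of 18 lesions (columns, NK lesions left of the thick line and Ctrl lesions right of it; dotted lines divide the mice). Ccl6 and Cxcl15 are bright in nearly all columns, Cxcl9, Cxcl10 and Ccl22 peak in NK2-1, Ccl8 in NK1-1, and Cxcr2 in the lesions of KO2 and in KO3-2.

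Per kilobase of exon, the most abundant of these mRNAs over the 18 lesions was Ccl6, with a mean level of 106 CPM per kb. It encodes a mouse chemokine that binds Ccr1 and is made by macrophages and other myeloid cells. Cxcl15 followed at 90.7 CPM per kb; its product, also called lungkine, comes from lung epithelium. Next in mean level stood Cxcl17 (34.5 CPM per kb), a chemokine of mucosal epithelium, the monocyte attractants Ccl2 (32.1 CPM per kb) and Ccl7 (31.6 CPM per kb), and Ccl9 (15.3 CPM per kb). The receptors with the highest mean levels were Cxcr2 (11.6 CPM per kb) and Ccr2 (11.3 CPM per kb). Neighbours in this order, such as Ccl2 and Ccl7 or Cxcr2 and Ccr2, differed by less than their spread over lesions.

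Counts of the family were uneven between lesions. Only 10 of the 54 genes had counts in all 18 lesions, and 8 had counts in 1 to 5 lesions. Among the 44 genes with at least 20 counts, the median SD over lesions was 1.06 on the scale of log2 (CPM + 0.5), and 5 genes had over 50% of their counts in 1 lesion. Of the 10 genes with counts in every lesion, Cxcl16 had the lowest SD, 0.55 on that scale, and of the 44, Cxcl17 had the highest, 2.90. Summed over ligands, the 7 NK lesions ran from 319 to 931 CPM with a median of 684, against 269 to 937 CPM with a median of 619 in the 11 Ctrl lesions. Summed over receptors, the NK lesions ran from 53.9 to 202 CPM with a median of 137, against 56.5 to 373 CPM with a median of 123 in the Ctrl lesions. The groups overlapped in both sums.

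None of the 42 tested genes passed the test between NK and Ctrl mice: 0 had an adjusted p under 0.05 by edgeR's quasi-likelihood test with Benjamini-Hochberg adjustment, and each adjusted p was 0.9998. The same was true of all 16917 genes tested, of which 0% were called. At an unadjusted p under 0.05, 1 chemokine gene (Ccl8) was higher with NK cells, where 1.55% of all tested genes were, and 0 were lower, where 0.969% of all tested genes were. DESeq2 on the same sums called 0 of the chemokine and receptor genes. The fitted log2 fold change, NK over Ctrl, was positive for 22 of the 42 genes and negative for 20, beside 48.3% positive among all genes tested. Their median log2 fold change was 0.11, beside -0.03 for all genes tested. Both NK mice lay above every Ctrl mouse for 5 of the 42, among them Cxcl1, Ccl11, Cxcl12 and Ccl5, where 7.94% of all genes tested did so. Both NK mice lay below every Ctrl mouse for 2 (Cx3cr1 and Ccl12), where 6.86% of all genes did so. With 2 mice against 3, an exact one-sided permutation test cannot go below 0.1.

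**Figure D2:**
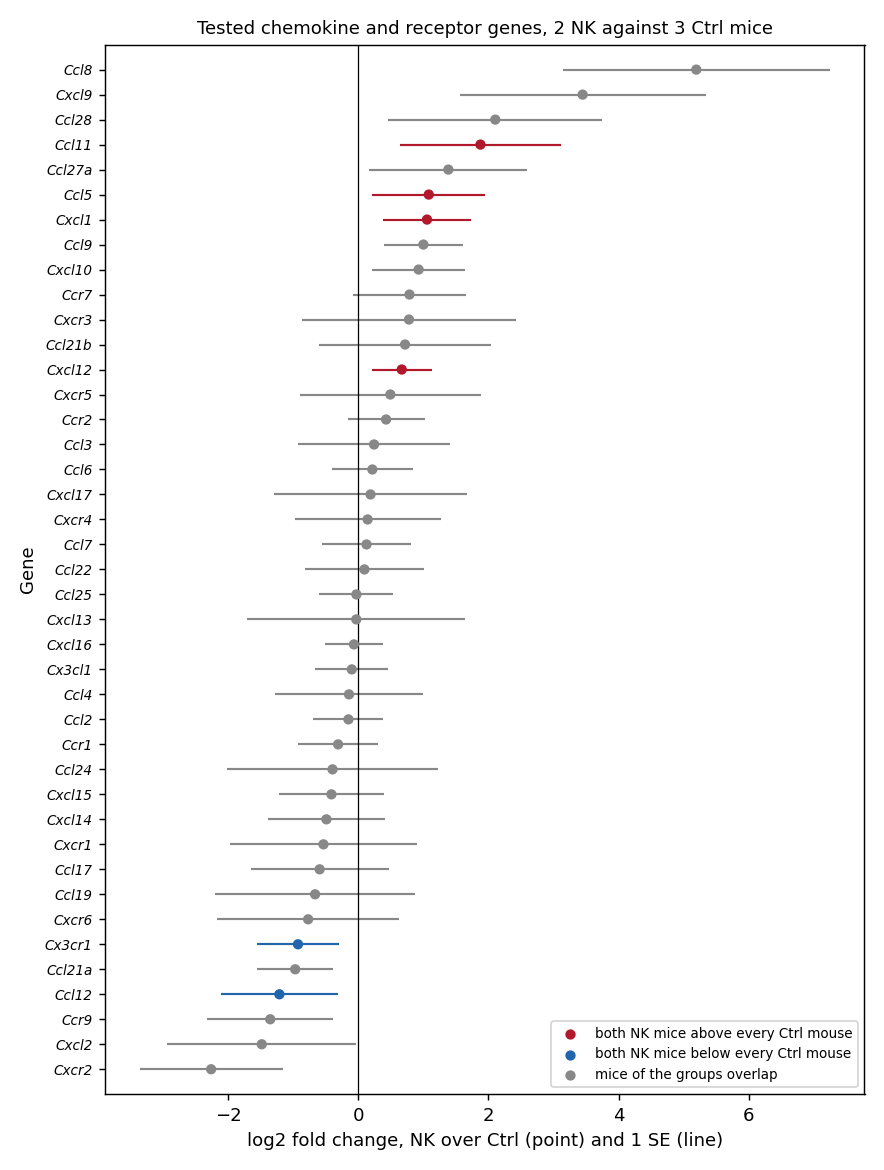
Fitted log2 fold change of NK over Ctrl mice (points, with lines of 1 SE) for 41 of the tested chemokine and receptor genes, ordered by size, from sums over lesions in 2 NK and 3 Ctrl mice. Red points mark the 4 genes with both NK mice above every Ctrl mouse, blue points the 2 with both below, and grey points the rest; most lines of 1 SE cross 0.

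The interferon-induced ligands of Cxcr3 peaked together in lesion NK2-1. Cxcl9 had 0, 1.77 and 20.8 CPM as the lowest, median and highest of the NK lesions, against 0, 0 and 1.81 CPM in the Ctrl lesions. Cxcl10 had 0, 7.44 and 53.2 CPM as the lowest, median and highest of the NK lesions, against 0, 4.23 and 14.4 CPM in the Ctrl lesions. For both genes the highest value was that of NK2-1, and it lay above every Ctrl lesion. Cxcl11, which the annotation lists as a polymorphic pseudogene, had 35 counts in the NK lesions and 0 in the Ctrl lesions, and 33 of the 35 were in NK2-1, where it reached 2.44 CPM.

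By mouse, Cxcl9 stood at 0.0952 CPM in NK1 and 7.10 CPM in NK2, against 0.919, 0.0219 and 0 CPM in KO1, KO2 and KO3. The log2 fold change came to 3.45 ± 1.89 (SE; unadjusted p = 0.106 and adjusted p = 0.9998 by edgeR), and it was -1.73 without mouse NK2. The 2 NK mice were on either side of KO1. Cxcl10 stood at 4.19 and 17.5 CPM in NK1 and NK2, against 4.32, 8.64 and 4.18 CPM in KO1, KO2 and KO3, with a log2 fold change of 0.93 ± 0.72 (SE), which was -0.45 without mouse NK2. Of the Cxcl10 counts in NK lesions, 720 of 1025 (70.2%) came from NK2-1, and of all 433 Cxcl9 counts, 65.1% did (exact 95% interval 60.4% to 69.6%). Outside that lesion, the other NK2 lesions still had 1.98, 4.27 and 1.77 CPM of Cxcl9, beside a highest Ctrl value of 1.81 CPM in KO1-3.

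The 30 interferon response genes listed for comparison did not peak in the same lesion. Their summed level was 382 to 3104 CPM in NK lesions and 360 to 1222 CPM in Ctrl lesions. It was highest in NK1-3, where Cxcl9, Cxcl10 and Cxcl11 all had 0 counts. In that smallest library a count of 0 allows up to 2.10 CPM. This limit is below the NK2-1 values of these genes but above the median of Cxcl9 in NK lesions (1.77 CPM). In NK2-1 the sum was 1223 CPM, next to 1222 CPM in KO2-3 and 1215 CPM in KO1-2. Ifng, the gene of interferon gamma, was looked up after the Cxcl9 values were seen and had too few counts for the test, at 0 and 0.0714 CPM in NK1 and NK2, against 0.0278, 0 and 0 CPM in KO1, KO2 and KO3. Cxcr3, the receptor of these ligands, had 16 counts in NK lesions and 13 in Ctrl lesions, with a log2 fold change of 0.78 ± 1.64 (SE).

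The promoters of Cxcl9 and Cxcl10 are shown because the 2 genes peaked in the same lesion, NK2-1. Beside them are those of Cxcl1 and Cxcl15, ligands elsewhere on chromosome 5 that were highest in other lesions. Cxcl1 was highest in NK1-2 and Cxcl15 in KO1-2 (442 CPM), although NK2-1 came second in Cxcl15 (299 CPM). All are RefSeq sequence of build GRCm38.p6, from 250 bases before to 50 bases after the start of the gene, written 5′ to 3′ on the strand of the gene. Capitals mark matches on either strand to GAAANNGAA, the core of an interferon response element, or to GGNNTTTCC, the core of a kappa B site bound by NF-kappa B. Cxcl11 had no entry among these promoters. Cxcl9 lies at chr5:92328030-92328329 (minus strand), Cxcl10 at chr5:92348840-92349139 (minus strand), Cxcl1 at chr5:90890995-90891294 (plus strand) and Cxcl15 at chr5:90794284-90794583 (plus strand).
Cxcl9: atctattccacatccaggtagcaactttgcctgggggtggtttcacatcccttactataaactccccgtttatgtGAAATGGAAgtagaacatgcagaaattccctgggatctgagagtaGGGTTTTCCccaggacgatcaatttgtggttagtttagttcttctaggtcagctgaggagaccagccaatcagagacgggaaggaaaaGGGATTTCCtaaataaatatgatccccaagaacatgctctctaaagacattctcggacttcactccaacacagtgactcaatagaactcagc
Cxcl10: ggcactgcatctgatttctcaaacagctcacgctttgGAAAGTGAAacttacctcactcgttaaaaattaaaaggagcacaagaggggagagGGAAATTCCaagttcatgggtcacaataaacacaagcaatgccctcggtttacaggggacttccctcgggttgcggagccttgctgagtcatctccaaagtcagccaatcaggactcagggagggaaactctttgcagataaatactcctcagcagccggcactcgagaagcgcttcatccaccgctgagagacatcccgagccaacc
Cxcl1: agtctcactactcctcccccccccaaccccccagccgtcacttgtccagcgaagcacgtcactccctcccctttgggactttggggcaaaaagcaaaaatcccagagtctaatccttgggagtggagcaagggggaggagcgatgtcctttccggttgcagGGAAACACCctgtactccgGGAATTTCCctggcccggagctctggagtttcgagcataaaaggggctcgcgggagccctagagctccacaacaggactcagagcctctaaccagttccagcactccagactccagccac
Cxcl15: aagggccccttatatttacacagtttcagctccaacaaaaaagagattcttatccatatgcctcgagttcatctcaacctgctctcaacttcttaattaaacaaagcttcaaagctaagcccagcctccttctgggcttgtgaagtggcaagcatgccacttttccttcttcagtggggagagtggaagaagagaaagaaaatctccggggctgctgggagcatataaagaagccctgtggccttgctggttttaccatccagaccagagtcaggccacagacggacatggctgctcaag

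Counted from the start of the gene to the 5′ base of each match, Cxcl9 held the interferon element core at -175 and the kappa B core at -130 and -42. Cxcl10 held the interferon element core at -213 and the kappa B core at -158, and Cxcl1 held the kappa B core at -89 and -70. The window of Cxcl15 held neither. Ccl17, Ccl22, Cxcl12 and Cx3cl1 were also highest in NK2-1, and their windows held neither of these cores. The other family members with GAAANNGAA (Ccl1, Ccl3, Ccl19, Ccr2, Cxcl14 and Cxcr1) were highest in lesions other than NK2-1. Over the 46 promoter entries of the 39 family members that have one, 8 (17.4%) held GAAANNGAA, beside 8.56% of all 32851 promoters of the same length. For GGNNTTTCC it was again 8 of 46 (17.4%), beside 5.82% of all promoters. The interferon gamma activated site TTCNNNGAA, whose 2 strands read alike, was held by 3 of 46 (6.52%; Ccl17, Ccr6 and Cxcl14), beside 8.30% of all promoters. These matches describe letters in a window of sequence and are not shown to be bound sites; the 2 motifs marked above overlapped in none of the 4 sequences printed.

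Among the ligands of the neutrophil receptors, Cxcl1 was higher in both NK mice than in every Ctrl mouse and Cxcl2 was not. Cxcl1, a main attractant of neutrophils in the mouse, had 0, 3.75 and 11.2 CPM as the lowest, median and highest of the NK lesions, against 1.17, 2.32 and 5.09 CPM in the Ctrl lesions. By mouse it stood at 4.95 and 4.62 CPM in NK1 and NK2, against 2.14, 2.90 and 1.83 CPM in KO1, KO2 and KO3. Its fitted log2 fold change was 1.06 ± 0.67 (SE; unadjusted p = 0.153 by edgeR), and between 0.73 and 1.39 when any 1 mouse or lesion was left out. At the level of lesions the groups overlapped, with NK1-2 and NK2-3 above every Ctrl lesion and NK1-3 at 0.

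Cxcl2, the other inducible ligand of Cxcr2 with enough counts, stood at 0.381 and 0.393 CPM in NK1 and NK2, against 0.111, 0.548 and 2.70 CPM in KO1, KO2 and KO3. Its log2 fold change was -1.48 ± 1.46 (SE), and it was 0.22 without mouse KO3, whose lesion KO3-2 alone had 5.56 CPM. Cxcl5 had 2 counts in NK lesions and 9 in Ctrl lesions, and Cxcl3 had 0 and 3, so neither was tested. Cxcl15 was low in 1 NK mouse only: by mouse it stood at 28.2 and 282 CPM in NK1 and NK2, against 227, 150 and 243 CPM in KO1, KO2 and KO3. Its log2 fold change of -0.41 ± 0.81 (SE) was 0.46 without mouse NK1 and -2.88 without mouse NK2. The 3 NK1 lesions had 15.8, 20.4 and 100.8 CPM of Cxcl15, and the first and the second of these lay below every other lesion.

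Cxcr2, the receptor that carries neutrophils toward these ligands, was lower in NK than in Ctrl mice in the fit without passing the test. It had 0.937, 15.7 and 27.3 CPM as the lowest, median and highest of the NK lesions, against 8.80, 27.8 and 128 CPM in the Ctrl lesions. By mouse it stood at 1.81 and 20.6 CPM in NK1 and NK2, against 14.6, 83.5 and 65.4 CPM in KO1, KO2 and KO3. The mice overlapped, since NK2 lay above KO1, and 6 of the 11 Ctrl lesions lay above every NK lesion. The log2 fold change was -2.26 ± 1.10 (SE; unadjusted p = 0.0776 and adjusted p = 0.9998 by edgeR), -4.91 without mouse NK2 and -1.40 without mouse NK1. Without the lesions that had over 40% of their counts in mt-Rnr2, which leaves out mouse NK1 and lesions KO1-2, KO1-5 and KO3-2, it was -1.03 (unadjusted p = 0.328 by edgeR, with the lone NK mouse assumed to vary like the Ctrl mice).

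The 16 neutrophil markers were high in nearly the same lesions as Cxcr2. Their summed level was 141 to 870 CPM in NK lesions and 269 to 5936 CPM in Ctrl lesions, and all 16 had counts. In the fit by mouse 13 of the 16 had negative fold changes, with a median log2 fold change of -2.35. At an unadjusted p under 0.05 by edgeR 10 were lower, where 0.969% of all tested genes were, and 0 of the 16 were called. The mice overlapped in part: lesion sums were 247 to 459 CPM in NK2 and 269 to 460 CPM in KO1. S100a9 stood at 54.9 and 109 CPM in NK1 and NK2, against 106, 944 and 1550 CPM in KO1, KO2 and KO3. Csf3r did not overlap, at 25.8 and 41.4 CPM in NK1 and NK2, against 55.8, 190 and 237 CPM. The 6 lesions highest in the sum of the 16 markers and the 6 highest in Cxcr2 had 5 in common. These were KO3-2 (5936 CPM of markers and 128 CPM of Cxcr2), KO2-3 (2913 and 126 CPM), KO2-2 (2146 and 97.8 CPM), KO2-1 (1952 and 57.8 CPM) and KO2-4 (1152 and 35.4 CPM). Lesion KO3-1 was among the 6 highest in the sum (1689 CPM) but not in Cxcr2 (26.3 CPM), below NK2-2 (27.3 CPM) and KO1-5 (27.8 CPM). Lesion NK1-1 also departed from this, with a marker sum of 870 CPM and 0.937 CPM of Cxcr2. Of that sum, Ltf, the gene of lactoferrin, made 739 CPM. The part of neutrophil number in the Cxcr2 values was not tested. Cxcr1, the second receptor of this kind, had 22 counts in NK lesions and 42 in Ctrl lesions, and its log2 fold change was -0.53 ± 1.44 (SE).

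**Figure D3:**
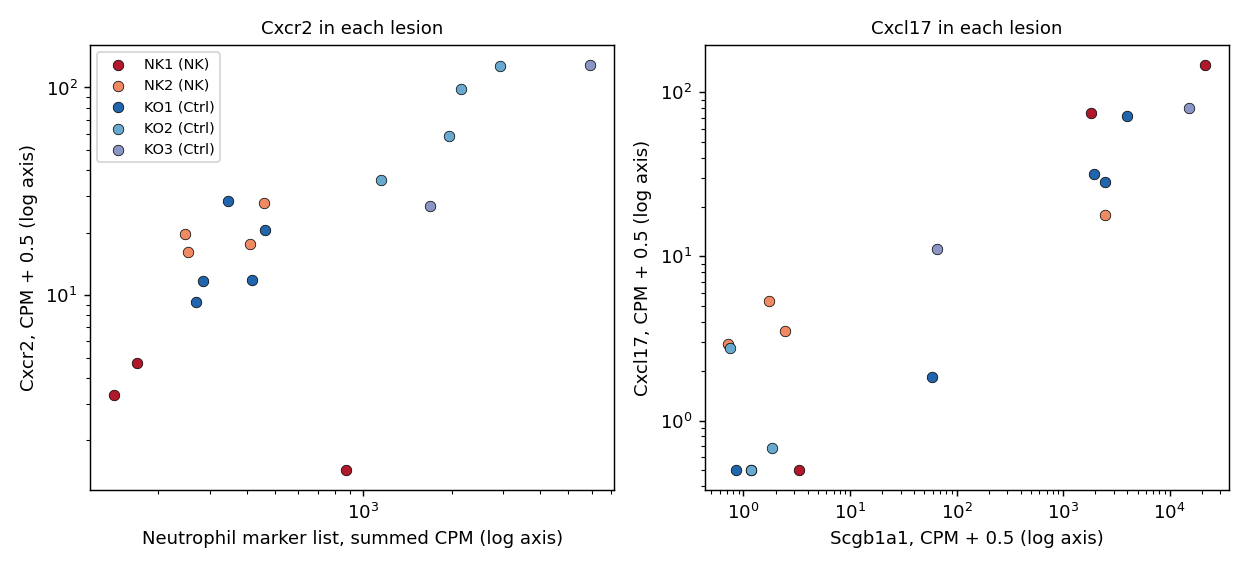
Left, Cxcr2 against the summed level of 16 neutrophil markers; right, Cxcl17 against Scgb1a1, a gene of airway club cells; each point is 1 of 18 lesions coloured by mouse, both axes are CPM on a log scale (with 0.5 added to all but the marker sum). The lesions of KO2 and KO3-2 lie at the upper right of the left panel at 35.4 to 128 CPM of Cxcr2, with NK1-1 (0.937 CPM of Cxcr2) below all others, and NK1-3 and KO3-1 lie at the upper right of the right panel.

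Ccl5, which NK cells and T cells release, was higher in both NK mice than in all 3 Ctrl mice, without passing the test. It stood at 2.38 and 2.23 CPM in NK1 and NK2, against 1.03, 1.58 and 0.609 CPM in KO1, KO2 and KO3. The fit gave a log2 fold change of 1.08 ± 0.87 (SE), or 0.31 without NK1-1. By lesion the groups overlapped, with NK2-1 (4.21 CPM) and NK1-1 (3.75 CPM) above every Ctrl lesion and NK1-3 at 0. Ccl3 and Ccl4, further chemokines that NK cells make, were scarce: Ccl3 had 24 counts in NK lesions and 26 in Ctrl lesions, and Ccl4 had 56 and 69.

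Ccl6 and Ccl9, mouse ligands of Ccr1, were abundant and their groups overlapped. Ccl6 stood at 232 and 229 CPM in NK1 and NK2, against 64.5, 349 and 181 CPM in KO1, KO2 and KO3, with a log2 fold change of 0.22 ± 0.63 (SE). Ccl9 stood at 122 and 49.8 CPM in NK1 and NK2, against 18.6, 68.7 and 41.1 CPM in KO1, KO2 and KO3. Its log2 fold change was 1.0 ± 0.60 (SE; unadjusted p = 0.136 by edgeR), and 0.21 without NK1-1, whose 171 CPM was the highest of all 18 lesions. Ccr1 itself, a receptor of monocytes and neutrophils, stood at 11.0 and 7.46 CPM in NK1 and NK2, against 4.98, 16.6 and 12.7 CPM in KO1, KO2 and KO3 (log2 fold change -0.31 ± 0.61, SE).

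**Figure D4:**
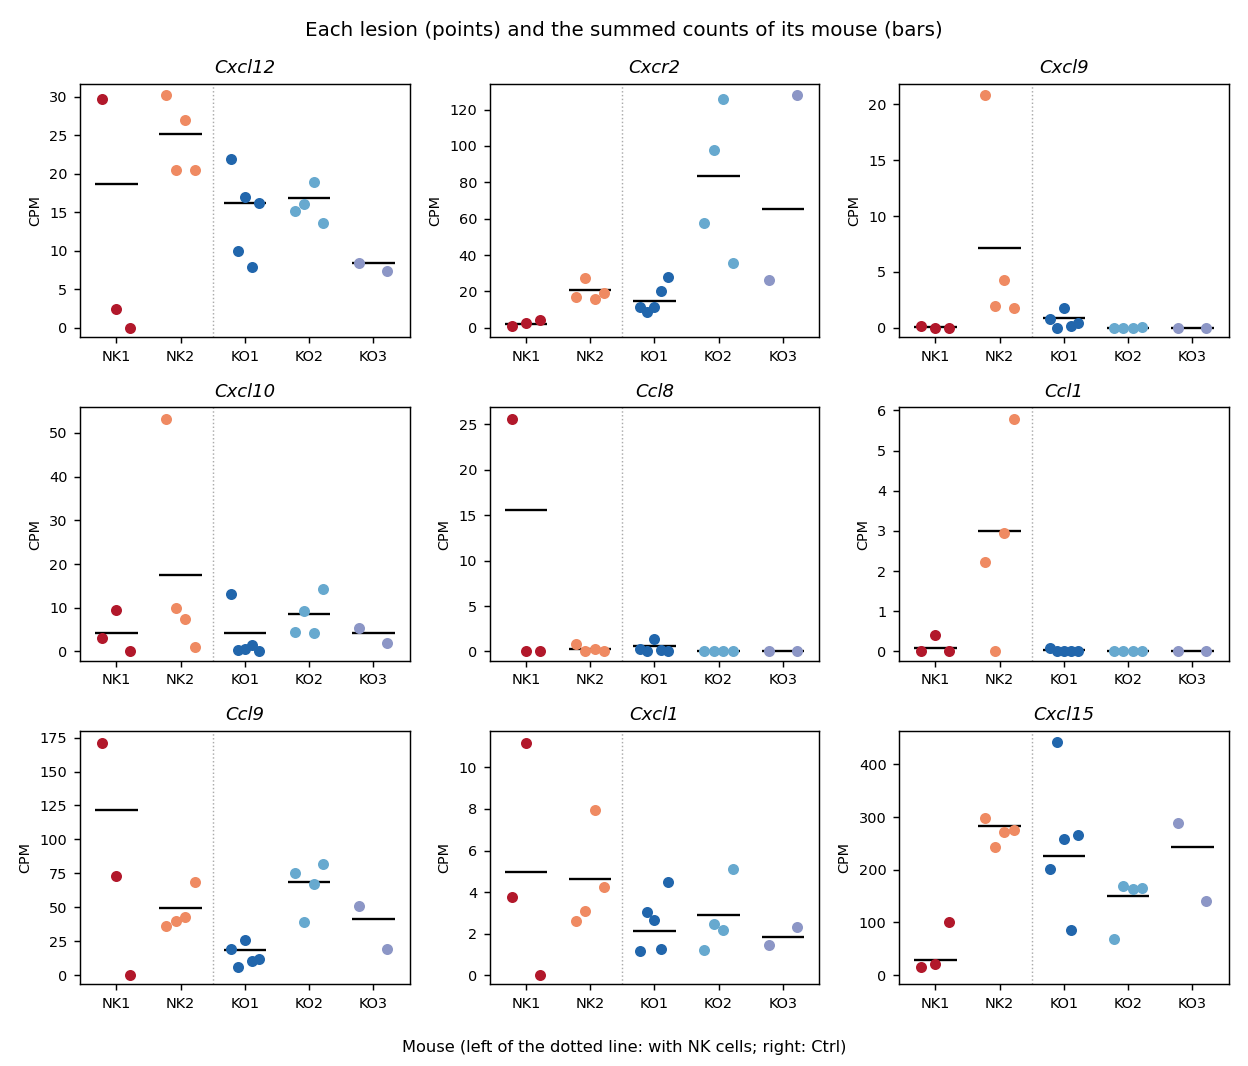
CPM of 9 chemokine and receptor genes in each lesion (points) by mouse, with NK mice left of the dotted line and Ctrl mice right of it; bars give the CPM of the counts summed over the lesions of the mouse. Single lesions stand out in Cxcl9 and Cxcl10 (NK2-1, 20.8 and 53.2 CPM) and in Ccl8 (NK1-1, 25.6 CPM), Ccl1 is seen in 3 of the 4 NK2 lesions, and the bars of both NK mice lie above all Ctrl bars for Cxcl12 and Cxcl1.

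The ligands of Ccr2 and Ccr3 gave 3 positive and 3 negative fold changes among 6 tested. Ccl2, the main attractant of monocytes, stood at 31.2 and 40.6 CPM in NK1 and NK2, against 18.7, 63.8 and 37.2 CPM in KO1, KO2 and KO3. Ccl7, a close relative of Ccl2, stood at 33.2 and 26.5 CPM in NK1 and NK2, against 12.3, 55.5 and 13.9 CPM in KO1, KO2 and KO3. In both genes the 2 NK mice lay between the lowest and the highest Ctrl mouse, and the log2 fold changes were -0.15 ± 0.54 for Ccl2 and 0.13 ± 0.68 for Ccl7 (SE). Lesion KO2-1 had the most of each, 100 CPM of Ccl2 and 99.0 CPM of Ccl7.

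Ccl12, another ligand of Ccr2 found in mice, was the ligand with both NK mice below every Ctrl mouse. It stood at 1.43 and 0.803 CPM in NK1 and NK2, against 1.45, 3.69 and 2.52 CPM in KO1, KO2 and KO3, although NK1 and KO1 were nearly equal. Its log2 fold change was -1.21 ± 0.89 (SE; unadjusted p = 0.213 by edgeR) and -2.10 without NK1-1, and 4 Ctrl lesions lay above every NK lesion. Ccr2 stood at 110 and 82.0 CPM in NK1 and NK2, against 42.5, 134 and 36.7 CPM in KO1, KO2 and KO3, with a log2 fold change of 0.43 ± 0.59 (SE), which was 0.12 without NK1-1 and 1.28 without mouse KO2. The 18 macrophage and monocyte markers summed to 640 to 4714 CPM in NK lesions and 1219 to 3771 CPM in Ctrl lesions. Lyz2 alone made most of the sum in each lesion, such as 3843 CPM in NK2-4 and 2950 CPM in KO3-2. Of the 18 fold changes, 11 were positive.

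Ccl8 gave the smallest unadjusted p of the family, and nearly all of it came from 1 lesion. This gene encodes a monocyte chemotactic protein of the Ccl2 group that in mice has been described as a ligand of Ccr8. It stood at 15.6 and 0.268 CPM in NK1 and NK2, against 0.585, 0 and 0 CPM in KO1, KO2 and KO3. Lesion NK1-1 held 164 of the 179 counts in NK lesions (91.6%), 82.0% of all 200 counts (exact 95% interval 76.0% to 87.1%), and no other lesion passed 1.34 CPM. The log2 fold change of 5.20 ± 2.05 (SE; unadjusted p = 0.0377 and adjusted p = 0.9998 by edgeR) was -0.17 without NK1-1. Ccl11, an attractant of eosinophils through Ccr3, stood at 0.952 and 0.50 CPM in NK1 and NK2, against 0.334, 0.0658 and 0.174 CPM in KO1, KO2 and KO3. Its counts were few, 38 in NK lesions and 17 in Ctrl lesions, its log2 fold change was 1.88 ± 1.24 (SE) and 0.71 without NK1-1, and NK1-1 and NK2-1 alone lay above every Ctrl lesion.

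Of 9 tested homeostatic ligands, 4 had positive and 5 negative fold changes. Cxcl12, the stromal ligand of Cxcr4, stood at 18.7 and 25.2 CPM in NK1 and NK2, against 16.1, 16.8 and 8.35 CPM in KO1, KO2 and KO3. By lesion it had 0, 20.5 and 30.2 CPM as the lowest, median and highest of the NK group, against 7.42, 15.2 and 21.9 CPM in the Ctrl group, and 3 NK lesions lay above every Ctrl lesion. The log2 fold change of 0.67 ± 0.46 (SE; unadjusted p = 0.187 by edgeR) was -0.0065 without NK1-1. That lesion also had the highest fibroblast marker sum, 9836 CPM, against 511 to 1613 CPM in Ctrl lesions. The next highest sum, 4980 CPM, was that of NK1-2, which had 2.40 CPM of Cxcl12. Lesion NK2-1, highest in Cxcl12 at 30.2 CPM, had a sum of 2214 CPM. The part of fibroblast number in the Cxcl12 values was not tested. Cxcr4 stood at 0.952 and 2.30 CPM in NK1 and NK2, against 3.01, 1.14 and 0.261 CPM in KO1, KO2 and KO3, a log2 fold change of 0.14 ± 1.12 (SE).

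Ccl21a, the ligand of Ccr7 made by lymphatic vessels and lymphoid stroma, stood at 9.52 and 5.39 CPM in NK1 and NK2, against 7.52, 19.2 and 16.9 CPM in KO1, KO2 and KO3. Its log2 fold change was -0.97 ± 0.58 (SE; unadjusted p = 0.137 by edgeR), -1.69 without NK1-1 and -0.29 without KO3-1. It reached 41.6 CPM in KO2-1 and had 0 counts in KO1-4 and KO1-5. Ccl21a and Ccl21b are near-identical copies, as are Ccl27a and Ccl27b, so the division of reads within each pair is uncertain. Cxcl13, the B cell attractant, had 15 of its 20 counts in NK lesions in NK1-2 and came to a log2 fold change of -0.03 ± 1.67 (SE). Ccr9, the receptor of Ccl25, stood at 1.81 and 0.767 CPM in NK1 and NK2, against 1.09, 4.80 and 3.83 CPM in KO1, KO2 and KO3, a log2 fold change of -1.35 ± 0.97 (SE), which was -2.74 without NK1-1 and -0.67 without KO3-1. Its exons overlap those of other genes, 1 of them on the same strand, so its counts are uncertain.

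Cx3cr1, the receptor of monocytes, macrophages and NK cells for the membrane-bound ligand Cx3cl1, had both NK mice below every Ctrl mouse. It stood at 2.66 and 9.51 CPM in NK1 and NK2, against 13, 11.5 and 10.5 CPM in KO1, KO2 and KO3. The log2 fold change was -0.93 ± 0.63 (SE; unadjusted p = 0.182 by edgeR), -2.13 without mouse NK2 and -0.29 without mouse NK1. By lesion, 5 Ctrl lesions lay above every NK lesion, while KO1-2 (0.911 CPM) and KO1-5 (0.449 CPM) were among the lowest. Cx3cl1, made by epithelium and endothelium, stood at 7.61 and 11.6 CPM in NK1 and NK2, against 13.2, 5.59 and 12.2 CPM in KO1, KO2 and KO3, a log2 fold change of -0.10 ± 0.56 (SE).

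Cxcl16, the ligand of Cxcr6 and a scavenger receptor of macrophages, varied least among the 10 genes with counts in every lesion. It had 9.10, 20.1 and 29.1 CPM as the lowest, median and highest of the NK lesions, against 12.6, 17.2 and 34.1 CPM in the Ctrl lesions, and its log2 fold change was -0.07 ± 0.44 (SE). Cxcr6 itself had 17 counts in NK lesions and 32 in Ctrl lesions (log2 fold change -0.77 ± 1.40, SE). Cxcl17 varied most: it stood at 64.9 and 6.99 CPM in NK1 and NK2, against 36.9, 0.636 and 56.8 CPM in KO1, KO2 and KO3, with a log2 fold change of 0.19 ± 1.48 (SE). The lesion highest in Cxcl17, NK1-3 with 146 CPM, was also highest in Scgb1a1, which marks the club cells of the airway lining, with 21338 CPM. Lesion KO3-1 came next in both, with 79.9 CPM of Cxcl17 and 15072 CPM of Scgb1a1, and NK1-2 and KO2-1, with 0 counts of Cxcl17, had 2.80 and 0.687 CPM of Scgb1a1. The part of airway tissue in the captured area was not tested.

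Ccl1 fell outside the rule for named genes and is described because its values drew attention. It encodes a ligand of Ccr8 and had 169 counts in NK lesions and 1 in Ctrl lesions, yet it did not pass the filter. The 4 NK2 lesions had 2.22, 0, 2.95 and 5.79 CPM, the 3 NK1 lesions 0, 0.40 and 0 CPM, and KO1-1 was the single Ctrl lesion with a count, at 0.0973 CPM. The counts came almost entirely from 1 mouse, and 98 of them from NK2-4. Ccr8 had 0 counts in every lesion.

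Ccl22 and Ccr7, also named after their values were seen, are genes of mature dendritic cells, which migrate with Ccr7 and release Ccl22. In NK2-1, Ccl22 reached 32.1 CPM, the highest of all lesions, with 435 of its 544 counts in NK lesions. Ccr7 was highest in KO2-3 (19.2 CPM) and stood at 12 CPM in NK2-1. The 10 dendritic cell markers summed to 26.6 to 249 CPM in NK lesions and 134 to 280 CPM in Ctrl lesions, highest in KO1-1, which had 0.584 CPM of Ccl22 and 1.27 CPM of Ccr7. Fscn1 alone made most of the sum in each lesion, such as 253 CPM in KO1-1 and 204 CPM in NK2-1. The highest lesion of the sum was therefore that of Fscn1. Of the other markers, Itgax was highest in KO3-2 (30.4 CPM) and Flt3 in NK2-3 (17.5 CPM). The part of dendritic cell number in the Ccl22 and Ccr7 values was not tested. The 14 tested genes outside the rule, Ccl22 and Ccr7 included, had log2 fold changes of -0.66 to 2.11. Of these, 7 were positive and 7 negative, with a smallest unadjusted p of 0.236 by edgeR. The 8 untested genes with counts ranged from 1 count (Ccr4) to 170 (Ccl1).

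Peaks of the family were gathered in a few lesions. Of the 44 genes with at least 20 counts, NK2-1 was the highest lesion for 10, KO2-1 for 7 and NK1-1 for 5. In NK2-1 these included the Cxcr3 ligands, Ccl5, Ccl4, Ccl17, Ccl22, Ccl11, Cxcl12 and Cx3cl1, and in KO2-1 they included Ccl2, Ccl6, Ccl7, Ccl12 and Ccl21a. On the genome, 14 of the 54 genes lie on chromosome 11, 11 on chromosome 5 and 10 on chromosome 9. Neighbours in the Ccl group of chromosome 11 did not all share a peak. Ccl2 (82035571 to 82037453), Ccl7 (82045712 to 82047525) and Ccl12 (82101845 to 82103400) were highest in KO2-1. Ccl11 (82057823 to 82062955), which lies between Ccl7 and Ccl12, was highest in NK2-1. Ccl8 (82115185 to 82116799), next to Ccl12, was highest in NK1-1 (GRCm38, GENCODE M21). Cxcl10, Cxcl11, Cxcl16, Cx3cr1, Ccl25, Ccl27a and Cxcr5 share exon bases with a gene on the other strand, and since no source used here says whether strand was used in counting, their counts may include reads of that gene.

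Other genes of the chemokine system were set beside the family. Of 12 such genes, decoy receptors and further ligands among them, 10 were tested, 3 with positive and 7 with negative fold changes, and 0 passed at an adjusted p under 0.05 by edgeR, with 1 higher at an unadjusted p under 0.05, where 1.55% of all tested genes were. That gene was Xcl1, a chemokine of NK cells that attracts Xcr1-bearing dendritic cells; it fell outside the rule for named genes and stood at 1.71 and 2.5 CPM in NK1 and NK2, against 0.195, 0.0439 and 0 CPM in KO1, KO2 and KO3. Ackr3, a scavenging receptor of Cxcl12, stood at 8.37 and 9.22 CPM in NK1 and NK2, against 15.5, 20.6 and 9.22 CPM in KO1, KO2 and KO3 (log2 fold change -0.78 ± 0.51, SE).

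Genes that carry or induce chemokine signals had more negative than positive fold changes, without passing the test. Of 29 genes of receptor signalling, all tested, 8 had positive and 21 negative fold changes, with a median log2 fold change of -0.42, and 1 of them was lower at an unadjusted p under 0.05 by edgeR. Among all genes tested, 48.3% had positive fold changes and 0.969% were lower at that unadjusted p. Of 27 genes that induce chemokine genes, 23 were tested, 7 with positive and 16 with negative fold changes (median -0.26), and 2 were lower at that unadjusted p. One of the 2 was Il1b, the gene of interleukin 1 beta, which drives Cxcl1 and Cxcl2 in many cells; named after its values were seen, it stood at 14.3 and 22.3 CPM in NK1 and NK2, against 24.6, 77.3 and 45.2 CPM in KO1, KO2 and KO3. In all of these lists 0 genes were called by edgeR's quasi-likelihood test with Benjamini-Hochberg adjustment.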

How the data were processed

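RNA-seq libraries were made from 18 laser-captured lung lesions with 2 ng of total RNA each and a kit made for single cells, per the labels' protocols. The submitters' processing notes name the tools RSEM 1.2.28, STAR, bcl2fastq 2.17 and DESeq2 and the build mm10. The authors deposited expected counts, the estimated counts per gene that RSEM gives, with no scaling, and these were rounded to whole numbers. A second deposited table holds values judged from their range to be on a log2 scale and normalized by the authors in a way not given in the sources used here; it gave the gene symbols and 1 alternative. There were 0 further columns of sample values.

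Gene identifiers were matched to symbols without their version (49326 of 49585). Sums of counts per mouse were filtered with filterByExpr (minimum count 10, minimum total 15; 16917 genes kept) and compared with the robust quasi-likelihood F test of edgeR 4.0.16 (TMM scaling, R 4.3.3), calling genes at a Benjamini-Hochberg adjusted p under 0.05. SEs were taken as |log2 fold change| over the root of the F statistic. No 2 lesions of a mouse were alike within sampling noise (lowest chi-square per degree of freedom 23.8). P-values measure the spread between these 5 mice. Shares have exact Clopper-Pearson intervals. Alternatives used limma 3.58.1, DESeq2 1.42.0, other filters, scalings and weights, and each mouse or lesion left out.

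The members, lists and tests were chosen with earlier results of these data known. The genes named are, in each direction, the 6 tested members with the smallest p, the 10 with the highest summed count and a list of common chemokine genes; others are named as chosen after their values were seen. Gene positions and exon lengths are from GENCODE M21 (GRCm38). Promoters are from RefSeq; protein sequences were not used here. The values of 1 member are not reported here, although it is in the counts of members.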

Additional observations from a re-analysis of the deposited data

Results flagged for a closer look

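In 8 of the 30 named genes, 1 of the 7 NK lesions stood apart from the other NK lesions, its gap to the nearest of them, as a share of the whole range, passing Dixon's 95% critical value. Chance gives such a lesion in about 1 in 20 groups, lesions of 1 mouse are not independent, and genes near 0 in most lesions meet this rule easily. Lesion NK2-1 stood apart in Cxcl9 (20.8 CPM, next lesion 4.27 CPM), Cxcl10 (53.2 CPM, next lesion 9.95 CPM) and Cxcl11 (2.44 CPM, next lesion 0.156 CPM), which are the 3 ligands of Cxcr3. Lesion NK1-1 stood apart in Ccl8 (25.6 CPM, next lesion 0.812 CPM) and Ccl9 (171 CPM, next lesion 73.1 CPM). Lesion NK1-2 stood apart in Cxcl13 (6.0 CPM, next lesion 0.236 CPM), Cxcl2 (1.60 CPM, next lesion 0.591 CPM) and Cxcl5 (0.799 CPM, from 2 counts, next lesion 0 CPM).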

How the results depend on the processing

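Over all genes tested, edgeR called 0; DESeq2 called 27 higher and 12 lower with NK cells, edgeR without a filter on low counts 140 and 84, and edgeR with the mouse number of the titles as a replicate block 6 and 1. With a mouse or lesion left out, the calls ranged from 0 to 4 higher (4 without NK2) and were 0 lower. Of the chemokine and receptor genes, calls were made only without the filter: 2 higher (Ccl8, log2 fold change 5.13, adjusted p = 5.71e-04, and Ccl1, 6.77, adjusted p = 0.0347) and 1 lower (Cxcr2, -2.23, adjusted p = 0.00648). The replicate block gave a median log2 fold change of the family of 0.20, but same-numbered mice are different animals. The correlations of their deviations from the group mean were 0.03 (NK1 with KO1) and 0.28 (NK2 with KO2). With only 2 NK mice, the deviations of NK1 and NK2 are equal and opposite, so these correlations cannot decide whether the numbers pair mice. The median was 0.11 as reported, -0.02 to 0.21 in the alternatives, and -0.16 (without NK2) to 0.20 (without NK1) with a mouse or lesion left out.

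Of 298 values of named genes in 11 alternatives, 28 had the other sign. These were Cxcl13 with RLE scaling (0.00066), with DESeq2 (0.038) and with equal weight of lesions (0.26). With the mouse as a random block they were Ccl2 (0.037), Ccl21a (0.069), Cx3cl1 (0.27) and Cxcl16 (0.060). In the normalized table they were Ccl21a (0.078), Cx3cl1 (0.15), Cxcl12 (-0.12) and Cxcl13 (0.053). With the replicate block they were Ccl2 (0.040), Cx3cl1 (0.14), Cxcl16 (0.23), Cxcl2 (0.47) and Cxcr4 (-0.27). Without lesions over 40% mt-Rnr2 they were Ccl2 (0.20), Ccl7 (-0.15), Cxcl15 (0.37), Cxcl16 (0.059) and Cxcl17 (-2.57). Without NK1-1 and NK1-3 they were Ccl2 (0.60), Ccl7 (-0.075), Ccl8 (-0.049), Cx3cl1 (0.27), Cxcl13 (1.99), Cxcl17 (-2.92) and Cxcr4 (-0.15). The cause was not tested.

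With a mouse or lesion left out, 50 of 625 values had the other sign. The log2 fold changes ranged from -0.51 to 0.37 for Ccl2, -0.18 to 0.91 for Ccl6, -0.37 to 1.19 for Ccl7, -0.17 to 6.16 for Ccl8, -0.66 to 0.069 for Ccr1, -0.44 to 0.28 for Cx3cl1, -0.45 to 1.61 for Cxcl10 and -0.0065 to 0.87 for Cxcl12. They ranged from -3.37 to 1.31 for Cxcl13, -2.88 to 0.46 for Cxcl15, -0.46 to 0.21 for Cxcl16, -2.16 to 1.13 for Cxcl17, -2.44 to 0.22 for Cxcl2, -1.73 to 4.41 for Cxcl9 and -0.64 to 1.2 for Cxcr4. Where the sign held, they ranged from 0.71 to 2.69 for Ccl11, -2.10 to -0.84 for Ccl12, -1.69 to -0.29 for Ccl21a, 0.31 to 1.47 for Ccl5, 0.21 to 1.53 for Ccl9, 0.12 to 1.28 for Ccr2, -2.74 to -0.67 for Ccr9, -2.13 to -0.29 for Cx3cr1, -4.91 to -1.40 for Cxcr2, 0.35 to 1.02 for Cxcr3 and -1.83 to -0.29 for Cxcr6. Without the lesions over 40% mt-Rnr2, Ccl8 came to 0.098, Ccl9 to 0.060, Ccr2 to 0.10, Ccl11 to 1.03, Ccl21a to -1.75 and Ccr9 to -2.38. Without NK1-1 and NK1-3, Cxcl1 came to 1.86 and Cxcl12 to 0.075.

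In 12 named genes the sign was the same in every fit that tested the gene. They included Ccl5, Ccl9, Ccl11, Ccl12, Ccr2, Ccr9, Cx3cr1, Cxcl1, Cxcr2, Cxcr3 and Cxcr6. With 2 NK mice this does not show that they differ. Of the 23 fits with a mouse or lesion left out, Cxcr3 was tested in only 11 and Cxcr6 in 20, so their ranges cover those alone.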

Other observations

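Further groups of genes stood beside the chemokines without being described above. The 14 blood endothelial markers all had negative log2 fold changes, NK over Ctrl, with a median of -0.83. Their summed level was 62.3 to 436 CPM in NK lesions, with a median of 389 and the lowest value in NK1-1. In Ctrl lesions it was 220 to 628 CPM, with a lower median of 328 and the highest value in KO2-1. The mice overlapped for some of these genes. Pecam1 stood at 2.28 and 26.5 CPM in NK1 and NK2, against 24.1, 23.1 and 21.2 CPM in KO1, KO2 and KO3. For others they did not, and Egfl7 stood at 7.14 and 13.8 CPM in NK1 and NK2, against 20.3, 28.4 and 46.4 CPM. Of the 14, 0 passed at an adjusted p under 0.05 by edgeR's quasi-likelihood test, and 1 was lower at an unadjusted p under 0.05, where 0.969% of all tested genes were. The 6 lymphatic endothelial markers had 5 positive fold changes and 1 negative, with a median log2 fold change of 0.35, and summed to 9.10 to 75.4 CPM in NK lesions and 18.9 to 77.7 CPM in Ctrl lesions. Of the platelet chemokines, Pf4 stood at 5.33 and 5.32 CPM in NK1 and NK2, against 6.46, 16.5 and 8.70 CPM in KO1, KO2 and KO3, and Ppbp at 0.857 and 3.32 CPM, against 1.31, 7.68 and 5.05 CPM. Grk2, a kinase that desensitizes chemokine receptors, stood at 48.4 and 84.9 CPM in NK1 and NK2, against 99.9, 139 and 208 CPM in KO1, KO2 and KO3 (log2 fold change -1.16 ± 0.47, SE). These genes were named after their values were seen.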
